A study of Mus musculus with 6 samples.

Results

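The TALE homeobox genes examined were *Meis1*, *Meis2* and *Meis3*, *Pbx2*, *Pbx3* and *Pbx4*, *Pknox1*, and *Tgif1* and *Tgif2*. They were found by exact match of the gene name in the RNA-seq tables, which gave 9 of 20631 genes and 26 of 30352 RefSeq transcripts. The cells were neuromesodermal progenitors (NMPs) obtained from mouse embryonic stem cells (ESCs) by 2 days with bFGF and 1 day with bFGF plus the WNT agonist CHIR99021, after which all groups were kept without these factors for 2 h. During these 2 h the cells received DMSO vehicle, 25 nM retinoic acid (RA) or 1 µM RA, with 2 samples per condition. No genetic change is given for any group. The labels give the strain as 129 R1 and the methods name C57BL/6 ESCs, so the strain is uncertain. The duplicates are separate dishes that the methods call technical replicates, and the p-values therefore measure only the spread between dishes. The NMPs represent caudal progenitors in culture, and the ESCs had been maintained on fibroblast feeders.

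TALE proteins are homeodomain transcription factors with extra residues in a loop of the homeodomain. MEIS and PKNOX proteins bind PBX proteins, and the resulting complexes bind DNA together with HOX proteins, whose site preference they sharpen. TGIF proteins recognise a core motif much like that of MEIS but act as repressors, recruiting histone deacetylases and CtBP, and they also bind SMAD proteins of the TGFβ/Nodal pathway. RA acts through nuclear receptors (RAR, with RXR as partner) that bind repeated hexamers in DNA, and *Meis* and 3′ *Hox* genes are widely used as readouts of RA in hindbrain, spinal cord and limb. The comparisons below ask which of these cofactor genes differ after 2 h of RA, and whether the doses differ.

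Estimated counts summed to 31753556 to 42029348 per sample, and the 9 genes took 12053 to 15086 of them, or 0.0351% to 0.0391%. The summed RPKM (reads scaled by transcript length and sequencing depth) of 6 NMP markers was 484 to 496 in DMSO, 529 to 542 at 25 nM and 518 to 536 at 1 µM RA, and *T*, *Sox2* and *Nkx1-2* were all expressed. *T* alone gave 367 to 380 RPKM and was not called. By edgeR *Sox2* (log2 fold changes of 1.56 and 1.64), *Nkx1-2* (1.02 and 0.98) and *Wnt3a* (0.18 and 0.21) were higher at both doses. The call of *Wnt3a* at 25 nM (adjusted p = 0.089, edgeR's likelihood ratio test) was lost in edgeR's quasi-likelihood test. DESeq2 called *Wnt3a* at neither dose. *Fgf8* was lower at both (-0.22 and -0.26), and *Cdx2* was called higher at 25 nM alone (0.24, adjusted p = 0.054, edgeR's likelihood ratio test). DESeq2 did not call *Cdx2* at 25 nM. Its direct difference between the doses, -0.22 at 1 µM against 25 nM, was not called (adjusted p = 0.17, edgeR's likelihood ratio test). The 3 pluripotency markers summed to 458 to 494 RPKM with no order by dose, and 3 neural markers to only 0.289 to 0.354 RPKM. Markers of some other cell types were also present and moved with RA. The 2 presomitic mesoderm markers (*Tbx6*, *Msgn1*), both lower at each dose, summed to 36.0 RPKM in each DMSO sample, 24.8 to 27.5 at 25 nM and 19.9 to 21.4 at 1 µM RA. The 2 endoderm markers (*Sox17*, *Foxa2*), also both lower at each dose, went from 20.7 to 21.6 RPKM in DMSO to 15.6 to 15.7 and 13.1 to 13.3 RPKM. Of 3 feeder fibroblast markers, summing to 2.80 to 3.58 RPKM over all samples, 2 (*Col1a1*, *Col1a2*) were lower at 1 µM RA by edgeR and 0 by DESeq2, where both had an unadjusted p under 0.05. The third, *Dcn*, with 3 to 13 estimated counts per sample, was called at neither dose. Its log2 fold change was -0.59 at 25 nM and 0.44 at 1 µM, so it did not share the direction of the other markers at 1 µM. Without the second DMSO or the second 1 µM sample *Col1a2* alone was called by edgeR. No list summed to 0. The part of these markers in the results below was not tested, and in bulk samples fewer cells of a type and less RNA per cell cannot be told apart. The 4 genes of the RA response list, *Rarb*, *Cyp26a1*, *Dhrs3* and *Cdx1*, were higher at both doses, with log2 fold changes of 1.76 to 4.91 at 25 nM and 1.94 to 5.57 at 1 µM.

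The genome sequence just before the transcription starts is shown for the called members with the largest changes at 1 µM RA, *Meis2*, *Pbx2* and *Tgif1*, to set what stands before their starts beside the changes given below. The sequences are from RefSeq (GRCm38.p6), 5′ to 3′ on the strand of the gene, and 7 of the 9 members had an entry. For *Meis2* (chr2:116064620-116064801, minus strand) the 182 bases lie before the more downstream of its starts, and for *Tgif1* (chr17:70851211-70851460, minus strand) before the start of its main transcript. For *Pbx2* (chr17:34592009-34592258, plus strand) the RefSeq start is upstream of the one in the tables. Capitals mark a hexamer of the kind bound by RA receptors.
Meis2: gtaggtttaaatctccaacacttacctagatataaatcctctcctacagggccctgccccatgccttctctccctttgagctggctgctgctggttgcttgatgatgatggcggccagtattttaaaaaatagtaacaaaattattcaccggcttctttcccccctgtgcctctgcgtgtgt
Pbx2: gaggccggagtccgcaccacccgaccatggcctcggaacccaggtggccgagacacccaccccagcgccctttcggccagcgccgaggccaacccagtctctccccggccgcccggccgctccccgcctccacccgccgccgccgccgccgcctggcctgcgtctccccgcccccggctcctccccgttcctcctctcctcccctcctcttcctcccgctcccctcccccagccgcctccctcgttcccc
Tgif1: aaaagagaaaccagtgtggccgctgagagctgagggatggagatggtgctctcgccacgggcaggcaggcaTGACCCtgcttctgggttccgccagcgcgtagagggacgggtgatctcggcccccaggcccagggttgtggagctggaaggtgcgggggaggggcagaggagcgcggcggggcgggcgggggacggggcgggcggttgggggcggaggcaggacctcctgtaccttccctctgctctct
The hexamers searched were AGGTCA (the usual receptor hexamer), with GGGTCA as a close variant, AGTTCA as found in many known elements, and also GGTTCA, on either strand, and the TGACCC in *Tgif1* is GGGTCA read on the other strand. Such a hexamer stood in 38.6% of all 32851 windows of up to 250 bases and in 4 of 11 windows of the members, namely 3 of *Tgif1* and 1 of *Meis3*. Direct repeats of these hexamers spaced by 1, 2 or 5 bases (DR1, DR2, DR5), found in 0.164%, 0.174% and 0.0883% of all windows, were in none of the 11. The same was true of the MEIS and TGIF core TGACAG, found in 15.9% of windows, and of the PBX and HOX motif TGATTGAT, found in 0.67%. No match says only that these letters are absent from these windows. The sole *Meis2* window lies before its downstream start. The bases before its upstream start, which held 73.9% of the *Meis2* RPKM in DMSO and 88.2% at 1 µM RA, were not searched. The GC content was 47.3% for *Meis2*, 77.6% for *Pbx2* and 69.6% for *Tgif1*, against a median of 52.4% over all windows.

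In the DMSO samples the 9 genes ranged widely in level, and the repressor genes were the highest. *Tgif1* stood at 46.5 ± 1.29 RPKM (mean ± SD, n = 2) and *Tgif2* at 28.1 ± 0.462. They were followed by the Pbx genes *Pbx2* at 20.5 ± 0.0489 and *Pbx3* at 14.2 ± 0.240. *Meis3* was by far the highest Meis gene, at 6.43 ± 0.0466 RPKM, and *Pknox1* came next at 4.19 ± 0.110. *Meis2* at 0.874 ± 0.0308, *Pbx4* at 0.791 ± 0.00220 and *Meis1* at 0.290 ± 0.0307 were near the bottom of the order. The duplicates of neighbours in this order did not overlap. For *Pbx4*, however, the 100 estimated counts of both DMSO samples give a 95% Poisson interval of 0.644 to 0.962 RPKM, which contains the level of *Meis2*, so that these neighbours are not separated at this depth.

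**Figure D1:**
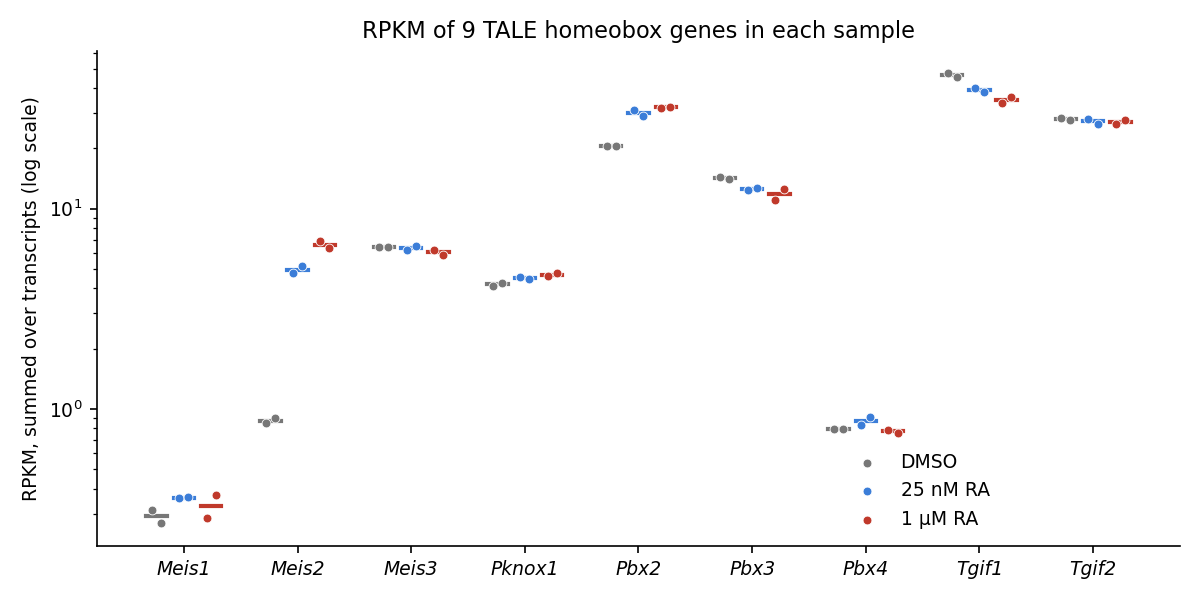
RPKM of each gene, summed over its transcripts, on a log axis; each point is 1 sample, short lines are means of 2 samples, and colours are DMSO, 25 nM RA and 1 µM RA. *Meis2* moves from 0.852 and 0.896 RPKM in DMSO to 4.74 and above with RA, *Pbx2* lies higher and *Tgif1* lower with RA, and the other genes shift little.

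All 9 members passed the filter on low counts. At 25 nM, *Meis2* and *Pbx2* rose, and *Tgif1* and *Pbx3* fell, by edgeR's likelihood ratio test at an adjusted p under 0.1. That is 2 of 9 members higher, where 4.5% of the 15143 genes tested were higher, and 2 lower, where 3.55% were lower. At 1 µM RA these 4 genes changed in the same directions and *Pknox1* rose by a small amount, giving 3 higher members against a background of 8.54% and 2 lower against 11.2%. At 1 µM the background comprised 1293 higher and 1690 lower genes, and 976 higher and 1955 lower when samples were scaled by total counts, under which *Pknox1* was not called. Both comparisons share the DMSO samples and are not independent. The members were picked with earlier results of these data known, so these counts describe the set and are not a test of it. The median log2 fold change of the 9 genes was 0.10 at 25 nM and -0.04 at 1 µM, beside -0.00051 and 0.0013 over all genes, and the median size of change, disregarding sign, was 0.18 and 0.16 beside 0.075 and 0.11.

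**Figure D2:**
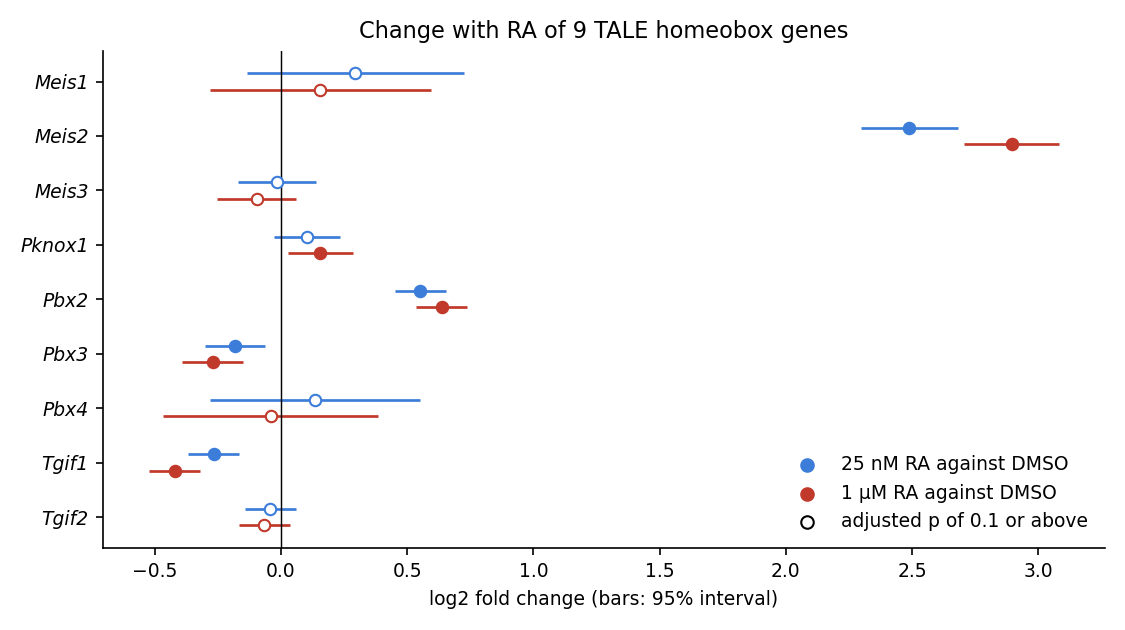
log2 fold change of each gene against DMSO at 25 nM (blue) and 1 µM RA (red); bars are 95% intervals of the edgeR fit, filled points have an adjusted p under 0.1 and open points do not. *Meis2* stands at 2.49 and 2.89, *Pbx2* at 0.55 and 0.64, and *Tgif1* at -0.27 and -0.42.

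The Meis genes encode the DNA-binding partners of PBX that also carry PBX into the nucleus, and among them *Meis2* (chr2:115861264-116065058, minus strand, mm10) changed most. Its estimated counts were 210 and 181 in DMSO, 860 and 1187 at 25 nM, and 1401 and 1322 at 1 µM RA, and its RPKM values were 0.852 and 0.896, then 4.74 and 5.17, then 6.85 and 6.36. Each RA sample lay well above both DMSO samples, and both samples at 1 µM RA lay above both with 25 nM. The log2 fold change was 2.49 ± 0.098 (SE) at 25 nM, a fold of 5.62 (95% interval 4.92 to 6.41), with an adjusted p of 1.0e-159 by edgeR's likelihood ratio test. The quasi-likelihood test of edgeR gave an adjusted p of 1.2e-12. At 1 µM RA it was 2.89 ± 0.096, a fold of 7.43 (6.52 to 8.47), with an adjusted p of 3.0e-228 by the likelihood ratio test. By p-value *Meis2* was number 10 of the 15143 genes at 25 nM and number 11 at 1 µM. *Meis2* was therefore the member farthest from DMSO at each dose.

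*Meis1* and *Meis3* gave no such change. *Meis1* (chr11:18880428-19018969, minus strand) had only 39 to 60 estimated counts per sample, and its RPKM was 0.312 and 0.269 in DMSO, 0.359 and 0.363 at 25 nM and 0.284 and 0.372 at 1 µM RA. The samples at 25 nM lay above DMSO and those at 1 µM RA overlapped it. Its log2 fold change was 0.30 (95% interval -0.13 to 0.72; adjusted p = 0.61, edgeR) at 25 nM and 0.16 (-0.28 to 0.59; adjusted p = 0.71) at 1 µM, so at this depth the interval at 25 nM reaches a rise of 1.65-fold. *Meis3* (chr7:16175395-16186508, plus strand) had 6.46 and 6.40 RPKM in DMSO, 6.21 and 6.51 at 25 nM and 6.19 and 5.89 at 1 µM RA. Its samples overlapped DMSO at 25 nM and were slightly below it at 1 µM. Its log2 fold change was -0.015 (-0.17 to 0.14) and -0.096 (-0.25 to 0.06), and neither was called, with adjusted p of 0.97 and 0.47 in edgeR.

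*Pknox1* (chr17:31564773-31607693, plus strand) encodes a MEIS relative, also called PREP1, that binds PBX in the same way. It had 4.11 and 4.27 RPKM in DMSO, 4.58 and 4.47 at 25 nM and 4.61 and 4.75 at 1 µM RA. All samples with RA lay above both DMSO samples, by a small margin. On the log2 scale the change was 0.10 ± 0.066 at 25 nM (adjusted p = 0.51, edgeR) and 0.16 ± 0.066 at 1 µM, where the adjusted p was 0.093 by the likelihood ratio test and 0.094 by the quasi-likelihood test. This call did not hold in DESeq2, where the adjusted p was 0.40. It was also lost on leaving out any 1 of the 6 samples, with adjusted p of 0.12 to 0.44 in edgeR.

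PBX proteins are the shared partners of MEIS, PKNOX and HOX proteins, and the Pbx genes moved in different directions. *Pbx2* (chr17:34592471-34597341, plus strand) had 2961 and 2424 estimated counts in DMSO, 3361 and 3949 at 25 nM and 3860 and 3977 at 1 µM RA. As RPKM this was 20.5 and 20.5, then 31.2 and 29.2, then 31.8 and 32.3. No sample with RA overlapped DMSO, and both doses were close to each other. This gave a log2 fold change of 0.55 ± 0.052 at 25 nM (1.47-fold, 1.37 to 1.57; adjusted p = 4.3e-24, edgeR) and 0.64 ± 0.052 at 1 µM (1.55-fold, 1.45 to 1.67; adjusted p = 1.8e-32). The gene shares exon sequence on the same strand with *Gpsm3*, which had 0.651 to 1.07 RPKM.

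*Pbx3* (chr2:34171457-34372045, minus strand) had 14.3 and 13.99 RPKM in DMSO, 12.4 and 12.7 at 25 nM and 11.0 and 12.5 at 1 µM RA. Both doses lay below both DMSO samples, and the doses overlapped each other. The log2 fold change was -0.18 ± 0.061 at 25 nM, with an adjusted p of 0.048 in edgeR's likelihood ratio test, 0.073 in its quasi-likelihood test and 0.28 in DESeq2. Without either DMSO sample or either 25 nM sample the call at 25 nM was lost, with adjusted p of 0.18 to 0.34 in edgeR. At 1 µM it was -0.27 ± 0.061 (0.829-fold, 0.762 to 0.901; adjusted p = 1.8e-04, edgeR), which held on leaving out any sample. *Pbx4* (chr8:69832704-69872292, plus strand), with 43 to 59 estimated counts per sample, had 0.793 and 0.790 RPKM in DMSO, 0.830 and 0.906 at 25 nM and 0.787 and 0.760 at 1 µM RA. The samples at 25 nM lay above DMSO and those at 1 µM RA below it. It passed the test at neither dose, with log2 fold changes of 0.14 (95% interval -0.28 to 0.55) and -0.04 (-0.47 to 0.39).

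TGIF proteins are repressors that compete with MEIS for similar sites, and of the genes for them *Tgif1* fell while *Tgif2* did not pass the test. *Tgif1* (chr17:70844205-70853532, minus strand) had 3864 and 3075 estimated counts in DMSO, 2412 and 2928 at 25 nM and 2339 and 2507 at 1 µM RA. Its RPKM was 47.4 and 45.6, then 39.8 and 38.4, then 33.8 and 36.0. The conditions did not overlap on the RPKM scale, with DMSO highest and 1 µM RA lowest. Its log2 fold change was -0.27 ± 0.052 at 25 nM (0.831-fold, 0.775 to 0.892; adjusted p = 1.1e-05, edgeR) and -0.42 ± 0.052 at 1 µM (0.747-fold, 0.696 to 0.801; adjusted p = 3.8e-14). The presomitic and endoderm marker sums given above also fell with dose, and their part in this fall was not tested.

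*Tgif2* (chr2:156840007-156855569, plus strand) had 28.4 and 27.7 RPKM in DMSO, 28.0 and 26.6 at 25 nM and 26.4 and 27.5 at 1 µM RA. The samples at 25 nM overlapped DMSO, and those at 1 µM RA lay just below it. The 95% interval of the log2 fold change was -0.14 to 0.06 at 25 nM and -0.16 to 0.03 at 1 µM, and neither was called. A gene on the other strand, *5430405H02Rik*, overlaps *Tgif2* and had 1.28 to 2.53 RPKM. The library kit keeps strand, but whether the counting used it is not stated, so reads of such a pair cannot be told apart. *Meis1* and *Pknox1* likewise overlap antisense gene models, which were not measured here.

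In the direct comparison of the doses, 1 µM RA against 25 nM, *Meis2* was the member called. This was 1 of 9 members higher, where 0.792% of genes were higher, and none lower, where 2.62% were lower. The log2 difference for *Meis2* was 0.40 ± 0.071 (95% interval 0.27 to 0.54), with an adjusted p of 5.3e-06 in edgeR's likelihood ratio test, 0.0039 in its quasi-likelihood test and 0.0046 in DESeq2. For *Tgif1* the log2 difference was -0.15 ± 0.053 (-0.26 to -0.05), with an adjusted p of 0.102, which just missed the threshold. It passed without the second of the 1 µM samples and under the stricter filter, each at an adjusted p of 0.086, and when samples were scaled by total counts, at 0.060 (edgeR). No member was called lower by the quasi-likelihood test or DESeq2, and 1 member, *Tgif1*, was lower at an unadjusted p under 0.05 in edgeR. *Pbx2*, with a difference of 0.08 (-0.02 to 0.18), and *Pbx3*, with -0.09 (-0.21 to 0.03), were not called.

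Since RPKM is scaled by length, the members can be summed to give the make-up of each group. The Meis genes together had 7.59 ± 0.0466 RPKM (n = 2) in DMSO, 11.7 ± 0.518 at 25 nM and 12.98 ± 0.4998 at 1 µM RA. The share of *Meis2* in that sum was 11.2% and 11.8% in DMSO, 41.9% and 42.9% at 25 nM, and 51.4% and 50.4% at 1 µM RA. *Meis2* was thus a minor part of the Meis RPKM in DMSO and was above *Meis3* in both samples at 1 µM RA. *Pbx2* made up 57.8 ± 0.338% of the RPKM of the 3 Pbx members in DMSO, 69.2 ± 1.38% at 25 nM and 71.9 ± 1.41% at 1 µM RA. *Tgif1* made up 62.3 ± 0.267% of the Tgif sum in DMSO, 58.9 ± 0.264% at 25 nM and 56.4 ± 0.341% at 1 µM RA, while the sum itself was 74.5 ± 1.76, 66.4 ± 2.04 and 61.8 ± 2.35 RPKM. Over all 9 genes the sum hardly moved, at 120.4 to 123.2 RPKM in DMSO and 121.7 to 128.1 with RA. These are descriptions, with no test.

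**Figure D3:**
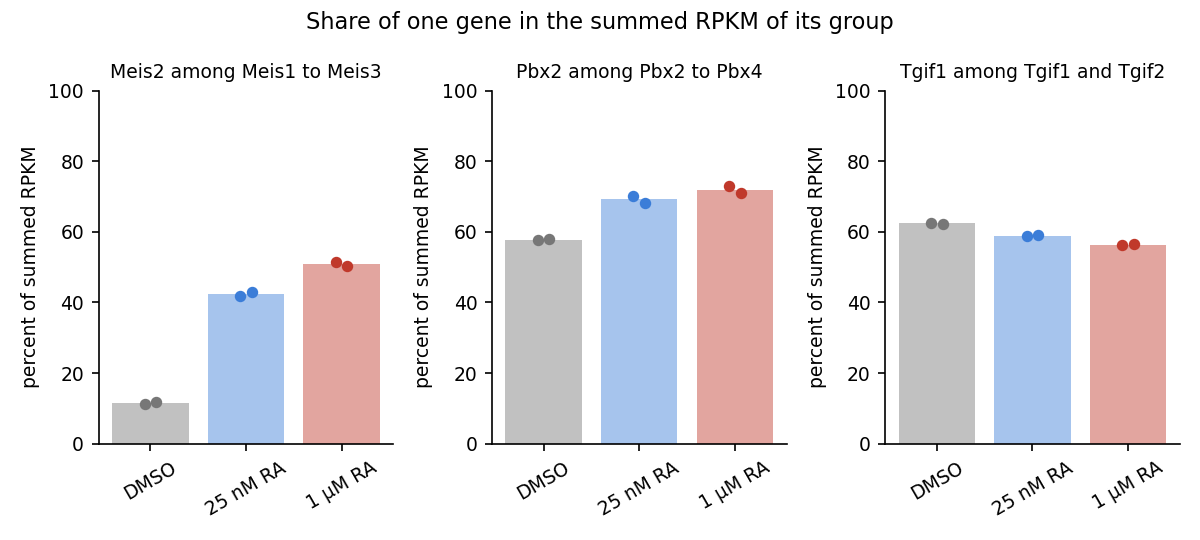
Share of *Meis2*, *Pbx2* and *Tgif1* in the summed RPKM of the Meis, Pbx and Tgif members, in percent; bars are means of 2 samples and points are samples. *Meis2* goes from 11.5% to 42.4% and 50.9%, *Pbx2* from 57.8% to 71.9% and *Tgif1* from 62.3% to 56.4%.

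The tables list single transcripts, among which the authors' estimation divided the reads of a gene, so transcripts carry more error than genes. All 26 transcripts passed the filter on low counts. At 25 nM 6 were higher (5 of *Meis2* and the one of *Pbx2*), where 2.25% of the 22074 transcripts tested were higher, and 2 were lower (*Tgif1* and *Tgif2*), where 1.44% were lower. At 1 µM RA 7 were higher (6 of *Meis2* and *Pbx2*) against 3.8%, and 2 lower (*Tgif1* and *Pbx3*) against 4.5%. Under the quasi-likelihood test 6 of the 26 were called at each dose. The shares above are for the likelihood ratio test, and no share of all transcripts is given here for the quasi-likelihood test. No transcript of *Meis1*, *Meis3*, *Pknox1* or *Pbx4* was called in any comparison. The *Pbx3* transcript NM_001290576 was a marginal call, with a log2 fold change of -0.47 ± 0.18 at 1 µM and an adjusted p of 0.099 by the likelihood ratio test and 0.22 by the quasi-likelihood test of edgeR. It had 5.53 and 5.01 RPKM in DMSO and 3.51 and 4.15 at 1 µM RA, without overlap.

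*Meis2* has 6 transcripts in the tables, with 2 starts. The transcript NM_010825 had the largest change, from 0.0531 and 0.0798 RPKM in DMSO to 1.00 and 1.09 at 25 nM and 1.78 and 1.32 at 1 µM RA. Its samples with RA were all far above DMSO, on 13 and 16 estimated counts in DMSO. The log2 fold change was 3.94 ± 0.37 at 25 nM and 4.50 ± 0.37 at 1 µM (adjusted p of 3.6e-27 and 3.4e-36, edgeR; 0.0058 and 0.0027 by the quasi-likelihood test). Its share of the RPKM of *Meis2* was 6.24% and 8.91% in DMSO, 21.1% and 21.0% at 25 nM, and 25.9% and 20.7% at 1 µM RA. The 4 transcripts of the upstream start (chr2, 116065058) held 73.9 ± 0.664% of *Meis2* in DMSO, 85.0 ± 8.42% at 25 nM and 88.2 ± 2.71% at 1 µM RA. The remainder came from the start at 116064621, before which the *Meis2* sequence printed above lies. All 6 transcripts had positive fold changes at both doses, from 1.02 to 3.94 and from 1.25 to 4.50 on the log2 scale, and NM_001159569 was not called at 25 nM (adjusted p = 0.37, edgeR). By the quasi-likelihood test 3 of the 6 were called at 25 nM and 4 at 1 µM RA.

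In RPKM most of the fall of *Tgif1* was in its main transcript NM_009372, which begins at 70851210 on chromosome 17. Its share of the gene was 68.5 ± 1.96% in DMSO, 62.4 ± 0.0677% at 25 nM and 67.7 ± 4.04% at 1 µM RA. It had 31.8 and 31.9 RPKM in DMSO, 24.8 and 23.9 at 25 nM and 23.8 and 23.3 at 1 µM RA. DMSO stood clear of both doses, and the doses were next to each other. The log2 fold change was -0.39 ± 0.061 and -0.44 ± 0.061, with adjusted p of 3.1e-08 and 9.5e-11 (edgeR's likelihood ratio test; 0.022 and 0.0098 by its quasi-likelihood test). The other 4 *Tgif1* transcripts, each from its own start, passed against DMSO at neither dose, with wider errors. At 1 µM RA the log2 fold changes of NM_001164074 (-0.41 ± 0.34), NM_001164076 (-0.47 ± 0.25) and NM_001164077 (-0.39 ± 0.26) were nonetheless near that of the main transcript. NM_001164075 had 0.087 ± 0.31. The fall at 1 µM RA is therefore not shown to be particular to 1 start. Between the doses NM_001164076 was lower at 1 µM, by -0.92 ± 0.25 on the log2 scale (adjusted p = 0.023, edgeR), with 5.44 and 4.73 RPKM in DMSO, 5.84 and 8.10 at 25 nM and 3.12 and 4.27 at 1 µM RA. This transcript is listed from a start at 70849790. The call was lost without the second 25 nM sample (adjusted p = 0.33), without the first 1 µM sample (0.29) and under the quasi-likelihood test (0.41).

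*Tgif2* as a gene was not called, but its transcripts did not move alike. The minor transcript NM_001291124 had 3.96 and 4.41 RPKM in DMSO, 2.16 and 1.98 at 25 nM and 4.004 and 4.37 at 1 µM RA. The samples at 25 nM were clearly the lowest, and those at 1 µM RA lay within the range of DMSO. Against DMSO its log2 fold change was -1.02 ± 0.15 at 25 nM (adjusted p = 1.6e-09 in edgeR's likelihood ratio test, 0.021 in its quasi-likelihood test) and -0.0065 ± 0.14 at 1 µM. The direct difference between the doses was 1.01 ± 0.15 (adjusted p = 2.2e-08 by the likelihood ratio test and 0.23 by the quasi-likelihood test). It stayed between 0.95 and 1.07 on leaving out any 1 sample. These are the calls of the direct comparison at the level of transcripts, 1 higher and 1 lower of 26, where 0.707% and 1.1% of all transcripts were higher and lower. The major transcript NM_173396 had 24.4 and 23.3 RPKM, then 25.9 and 24.6, then 22.4 and 23.2, and was called in no comparison. As a share of the gene NM_001291124 was 14.9 ± 1.37%, 7.59 ± 0.184% and 15.5 ± 0.491%.

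**Figure D4:**
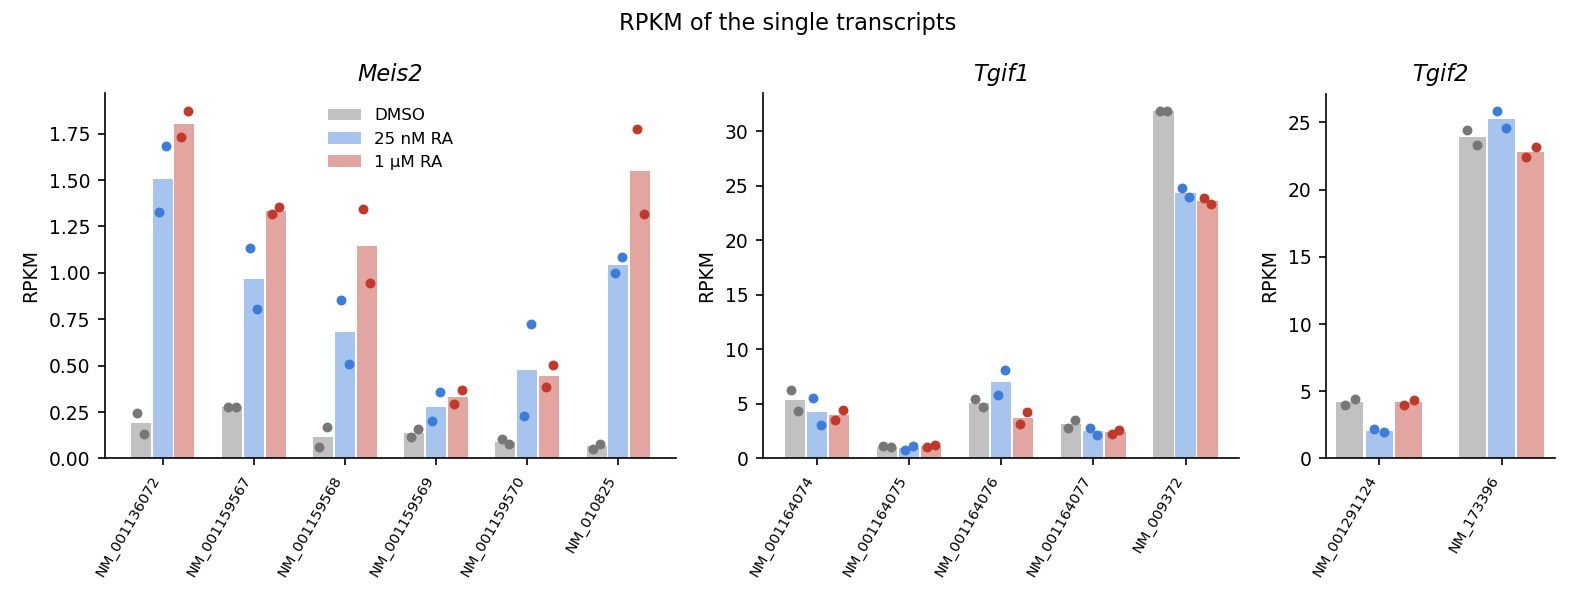
RPKM of each transcript of *Meis2*, *Tgif1* and *Tgif2* with DMSO, 25 nM RA and 1 µM RA; bars are means of 2 samples and points are samples. All *Meis2* transcripts are higher with RA, the main *Tgif1* transcript NM_009372 goes from about 31.8 to 23.6 RPKM, and the minor *Tgif2* transcript NM_001291124 is low at 25 nM alone.

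The other TALE genes tested were Iroquois genes, *Pknox2* and *Mkx*. Of 10 names on this list 8 were in the tables and 6 were tested. At 25 nM 0 of the 6 were called by either edgeR test or by DESeq2 (0 had an unadjusted p under 0.05 in each), where 4.5% of all genes tested were higher and 3.55% lower by the likelihood ratio test. At 1 µM RA 2 of the 6 were lower, where 11.2% of all genes were lower. These were *Irx5*, at -0.38 ± 0.087 on the log2 scale (adjusted p = 1.7e-04, edgeR), and *Irx1*, at -0.50 ± 0.18 (adjusted p = 0.037), both Iroquois patterning factors. *Irx2*, a further Iroquois gene, had -0.52 ± 0.24 at 1 µM RA and was not called (adjusted p = 0.12, edgeR). DESeq2, and edgeR without the first DMSO sample or either 1 µM sample, called *Irx5* alone at 1 µM RA. With edgeR on only the 4 samples compared, or without the second DMSO or the first 25 nM sample, *Irx2* was called as well, which gave 3.

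The Hox genes of paralogue groups 1 to 5, whose proteins bind DNA with PBX and MEIS, were mostly higher. Of 14 genes 7 were tested, and 6 rose at both doses while none fell, also by the quasi-likelihood test and DESeq2. These tests share the same filtered genes. *Hoxb4* (4 and 5 estimated counts in DMSO), *Hoxa5* (11 and 5) and *Hoxa3* (8 and 11) passed the filter only through samples with RA. The filter thus favours low genes that rise, and the count is in part set by it. Of all genes tested 4.5% rose at 25 nM and 8.54% at 1 µM RA. With no filter on low counts all 14 were tested, and 7 rose at 25 nM, while 8 rose and 1 fell at 1 µM RA. The genes with the smallest adjusted p were *Hoxa2*, *Hoxb2* and *Hoxb1*. *Hoxa2* had log2 fold changes of 2.78 ± 0.23 at 25 nM and 2.92 ± 0.23 at 1 µM. *Hoxb2* had 1.26 ± 0.10 and 1.44 ± 0.10, and *Hoxb1* had 1.10 ± 0.099 and 1.16 ± 0.099. By size of change *Hoxa5* stood above *Hoxa2*, at 2.82 and 3.05, and *Hoxb4* above *Hoxb2*, at 2.28 and 2.64, both with wider errors. The gene not called was *Hoxa3*, at 0.94 and 0.92 (adjusted p of 0.20 and 0.11, edgeR). It was called at 1 µM RA without the second DMSO sample, and without the first 25 nM sample 5 genes rose at 25 nM, *Hoxb4* being lost. Between the doses 0 of the 7 were called by either edgeR test or by DESeq2, with 1, 1 and 0 at an unadjusted p under 0.05. Over all genes tested 0.792% were higher and 2.62% lower in this comparison by the likelihood ratio test.

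The corepressors and SMAD proteins that work with TGIF, and the PBX-binding protein PBXIP1, had log2 fold changes of -0.18 to 0.20. Of the 10 genes 1 was higher at 25 nM, *Smad2*, a Nodal signal transducer, at 0.13 ± 0.050 (adjusted p = 0.089, edgeR). None was lower. Of all genes tested 4.5% were higher and 3.55% lower at this dose. At 1 µM RA 2 were higher and 2 lower, where 8.54% and 11.2% of all genes were. *Smad2* was higher at 0.20 ± 0.049 (adjusted p = 7.5e-04), *Sin3a*, a scaffold of histone deacetylase complexes, lower at -0.18 ± 0.050 (0.0051), and *Smad3*, which like *Smad2* carries Nodal signals, lower at -0.16 ± 0.059 (0.051), all by edgeR. *Hdac2* was the other higher gene. The call of *Smad2* at 25 nM was lost in DESeq2, with total counts, with no filter and without any 1 of the DMSO or 25 nM samples. Without either DMSO sample or the first 1 µM sample the calls at 1 µM RA were 1 higher and 1 lower, and without the second 1 µM sample, with total counts or with no filter they were 1 and 2, *Hdac2* being lost. DESeq2 gave 2 and 1, without *Smad3*.

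**Figure D5:**
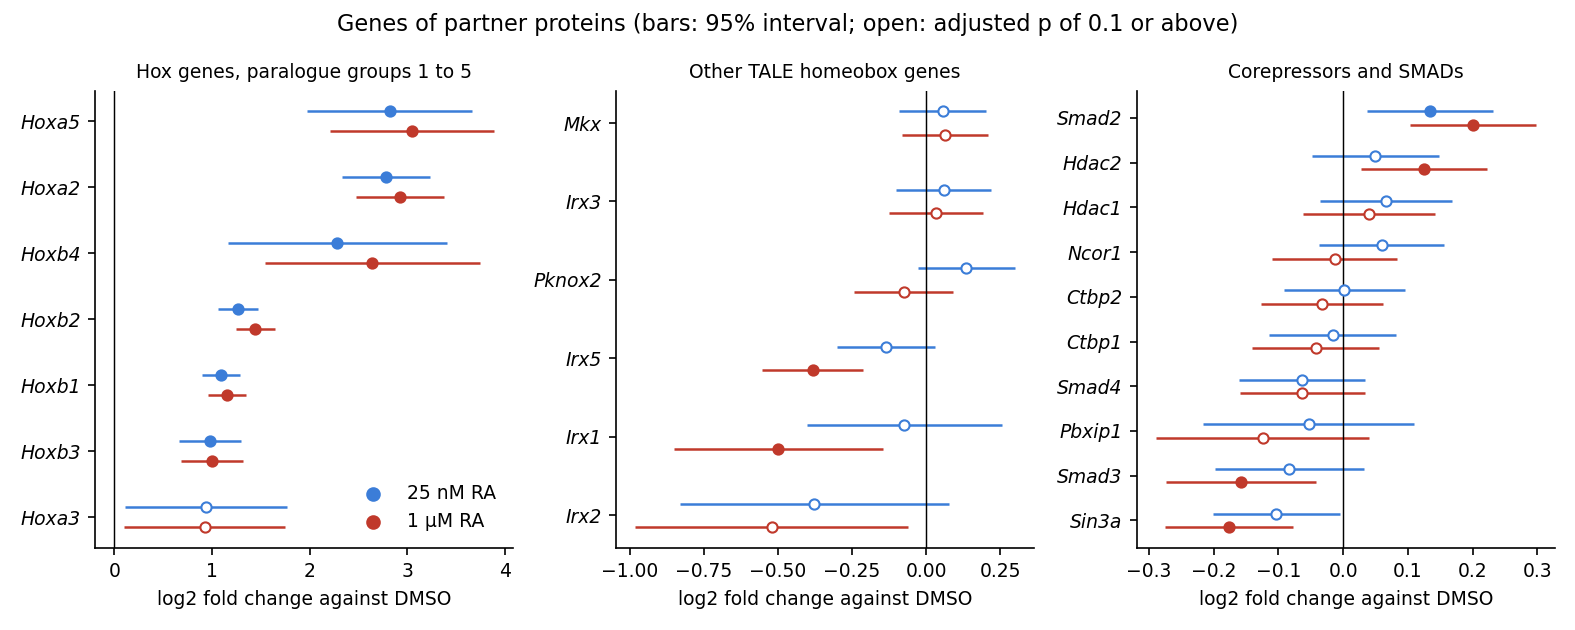
log2 fold change against DMSO at 25 nM (blue) and 1 µM RA (red) of the tested Hox genes of groups 1 to 5, other TALE genes, and corepressors and SMADs, with separate axes; bars are 95% intervals, and open points have an adjusted p of 0.1 or above. The Hox genes lie between 0.92 and 3.05, whereas the other lists stay between -0.52 and 0.20.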

How the data were processed

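RNA was ribodepleted and sequenced as 50-base single reads. The authors aligned the reads to mm10, per the methods with TopHat, and divided them among transcripts by an expectation-maximization estimate; the submitters' processing notes list FastQC 0.11, TopHat2 2.0.13, Bowtie2 2.2.5.0 and Partek 6.6. The estimated counts deposited by the authors are not normalized, and 49.4% to 50.1% of them are not whole. The RPKM values deposited by the authors are scaled by transcript length and reads. The members and lists were chosen with earlier results of these data known. Estimated counts were summed per gene, rounded and tested in edgeR 4.0.16 (R 4.3.3) with TMM, filterByExpr and the likelihood ratio test, as in the methods, with all 6 samples fitted together, with Benjamini-Hochberg adjustment over the 15143 genes or 22074 transcripts tested. An adjusted p under 0.1 was a call. RPKM served for levels only. The biological coefficient of variation was 0.0351 for genes, and TMM factors were 0.989 to 1.01. Duplicates had a mean chi-square per gene of 4.02, 3.83 and 5.89 for DMSO, 25 nM and 1 µM (medians 0.846, 0.837 and 1.03), where sampling noise alone gives a mean of 1, so no pair was taken for 1 library deposited in duplicate. This does not show that the dishes are biological replicates. Every member was named. Of the members' transcripts only some were named, and the rest appear only in counts, ranges or summed shares. From each other list the 3 genes with the smallest adjusted p at each dose could be named, and *Hdac2*, *Hoxa3*, *Hoxa5* and *Hoxb4* were named after their values were seen. Results for some genes of these lists are not reported here, and the counts leave them out. Alternatives were the quasi-likelihood test, DESeq2 1.42.0, its size factors, total counts, no filter or one of CPM of at least 1 in 2 samples, the 4 samples compared, a replicate block, an adjusted p under 0.05, and leaving out each sample. Gene positions are those of the tables (mm10), promoters are from RefSeq, and overlapping genes from GENCODE M21. Python 3.11.15 served for tables and figures, with pandas 2.3.3, numpy 2.4.6 and matplotlib 3.10.9.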

Additional observations from a re-analysis of the deposited data

Results flagged for a closer look

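These results differed between the RA doses in a direct test. *Meis2* was higher at 1 µM than at 25 nM RA by 0.404 on the log2 scale. The *Tgif2* transcript NM_001291124 was higher at 1 µM than at 25 nM RA by 1.01, since it was low at 25 nM alone. The *Tgif1* transcript NM_001164076 was lower at 1 µM than at 25 nM RA, at -0.924. Neither transcript was called in this comparison by edgeR's quasi-likelihood test, with adjusted p of 0.23 and 0.41.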

How the results depend on the processing

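Of 378 log2 fold changes of the members under alternatives, 355 kept their direction and side of the threshold, 16 lost a call, 3 gained one and 4 reversed. Lost calls were those of *Pbx3* at 25 nM and *Pknox1* at 1 µM RA, and those gained were of *Tgif1* between the doses. The reversals were of uncalled values, given here as the range on leaving out each sample: *Meis3* at 25 nM (-0.057 to 0.021), *Meis1* at 1 µM (-0.047 to 0.33), and between the doses *Meis1* (-0.34 to 0.033) and *Tgif2* (-0.053 to 0.0045). Members called numbered 4, 5 and 1 at 25 nM, at 1 µM and between the doses, and on leaving out a sample 3 to 4, 4 and 1 to 2. Between the doses there were 2 without the second 1 µM sample and with total counts or the stricter filter. Genes called numbered 1219, 2983 and 516, against 557, 1553 and 141 in DESeq2. On leaving out each sample they ranged from 799 to 1345, from 1922 to 2838 and from 205 to 577. The samples that moved these counts by over 1.5 times were the second DMSO (800) and second 25 nM sample (799) at 25 nM, the first (1960) and second DMSO sample (1922) at 1 µM, and the first (205) and second 25 nM sample (247) between the doses. Between the doses they were 340 at an adjusted p under 0.05 and 336 by the quasi-likelihood test. Of the members' 26 transcripts 7 were called at both doses. With counts summed per gene, 4 of the 9 genes were called at both, which is a count of a different unit. The share of all transcripts or genes called at both doses is not given here, and both comparisons use the same DMSO samples. The counts at both doses are therefore descriptions only. The cause of these shifts was not tested. The transcript values without each sample were chosen after seeing the data. Depth limits *Meis1* and *Pbx4*, with under 61 counts per sample.

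Samples with the same replicate number showed no common deviation over all genes, with correlations of -0.044, 0.049 and -0.059. Low genes with much sampling noise count as much as others here, so these values cannot exclude a shared batch. With the replicate block 1138, 2756 and 423 genes and 4, 4 and 1 members were called, *Pknox1* at 1 µM being lost (adjusted p = 0.13), as was *Smad2* at 25 nM, and no other call of a member changed.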

Other observations

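The genes whose pattern over the 6 samples was nearest to that of a changed member were found by the Euclidean distance between centred log2 CPM values, among 15142 genes. Nearest to *Meis2* were *Dleu7* (distance 0.322), *Mmp9* (0.478), a matrix metalloproteinase, and *Hotairm1* (0.506), a non-coding RNA of the *Hoxa* cluster. Their log2 fold changes were 2.74, 2.46 and 2.50 at 25 nM and 2.99, 2.63 and 2.77 at 1 µM RA, and *Dleu7* and *Mmp9* were low genes, at 0.144 and 0.135 RPKM in DMSO. Nearest to *Pbx2* were *Hip1r* (0.0583), *Abl1* (0.108), a tyrosine kinase, and *Pdcl3* (0.130). Nearest to *Tgif1* were *Samd4b* (0.0261), *Nynrin* (0.0498) and *Arid3b* (0.0658), and nearest to *Pbx3* were *Dram1* (0.0580), *Shroom4* (0.0623) and *Il17ra* (0.0625).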
